A study of Mus musculus with 20 samples.

Results

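The cytosolic ribosomal protein genes were examined across the cell classes of the mouse hippocampus. Members were chosen by gene symbol alone: symbols made of Rpl or Rps and a number, with the usual suffix letters, plus Rpsa, Rplp0, Rplp1 and Rplp2, and without pseudogenes. This rule took 83 of the 32285 genes in the deposited count files. It uses no measured value itself, but it was set with earlier results of these data known. By their symbols alone, 48 of the 83 were counted with the large subunit, 32 with the small subunit and 3 with the P stalk.

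Nuclei from frozen hippocampus of 20 male mice, aged 4.5 to 5.5 months, had been profiled by single nuclei RNA-sequencing with 1 library per mouse. APP/PS1 mice, which carry the APPSwe and PS1ΔE9 transgenes and serve as a model of familial Alzheimer's disease, were compared with WT littermates. The labels gave 6 WT Wake, 3 APP/PS1 Wake, 3 WT Isofluran, 4 APP/PS1 Isofluran, 2 WT Ketamine and 2 APP/PS1 Ketamine mice. Isofluran mice had been kept at 1.5% isoflurane after induction, Ketamine mice had received 150 mg/kg ketamine with 12 mg/kg xylazine, and both had been killed directly after 3 h of anesthesia. Wake mice had no anesthesia. The labels state that tissue was taken after perfusion with cold PBS, whereas the study's methods describe decapitation and immediate dissection. Mice are named below by the number in their label. Each group was counted as labelled, although the deposited design text gives other group sizes.

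The ribosome joins amino acids into proteins, and each of its subunits is built from ribosomal RNA and a set of small proteins that are needed in nearly equal amounts in every cell. Their mRNAs are spliced in the nucleus and exported to the cytoplasm for translation, so nuclei hold only a part of them. Many of these mRNAs begin with a tract of pyrimidines, the TOP motif, through which mTOR signalling and the binding protein Larp1 set their translation. A few members, such as Rpl10l and Rpl39l, are retained copies of another member and are best known from the testis.

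The starts of 8 genes are shown because the results below turn on them: the member with the most reads, the member best known as a target of signalling, the member called under isoflurane, a pair of genes with their retained copies, and a member with its highest neuronal level in CA1. Each line holds the 20 bases before the annotated start in lower case, the first 5 transcribed bases in capitals and 5 further bases, read on the gene's strand from RefSeq on GRCm38.p6.

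Rpl13: gtcacttccctttcgcctgaTTTTGattgg
Rps6: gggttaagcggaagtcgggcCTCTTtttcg
Rpl15: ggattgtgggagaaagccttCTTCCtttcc
Rpl10: ctatggttgttacagtggaaGATAGgccgc
Rpl10l: agaaatttggcctccattttGCGGCtggcg
Rpl39: ccccccctaagctccgcctcTAGCGacttc
Rpl39l: cctagctcccaggcctttccGGATTtccgg
Rpl26: gagatctcgcggcaacttacAGAACcggaa

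These windows lie at chr8:123102330-123102359 on the plus strand for Rpl13, chr4:86857358-86857387 on the minus strand for Rps6, chr14:18270977-18271006 on the minus strand for Rpl15 and chrX:74270796-74270825 on the plus strand for Rpl10. The Rpl10l window is chr12:66284392-66284421 on the minus strand, that of Rpl39 chrX:37085213-37085242 on the minus strand, that of Rpl39l chr16:10170208-10170237 on the plus strand and that of Rpl26 chr11:68901546-68901575 on the plus strand. Rps6 and Rpl15 start with C followed by 4 pyrimidines at the annotated base. The other 6 windows do not, at this base. A promoter entry was found for 63 members. Such a start, searched on the gene's strand only, stood exactly at the annotated base in 13 of them (20.6%), against 3.01% of the 27025 genes with an entry. Within 10 bases on either side it was present in 54.0% of the members and 28.8% of all genes. A match is a description of letters at an annotated position.

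The 20 libraries held 160777 nuclei and 9243992 to 25394891 unique molecular identifiers (UMIs) each, and no nucleus had fewer than 200 genes. At most 35 cell barcodes were shared by any of the 190 pairs of libraries. Members were read against a gate on marker genes that included no member, which placed 126504 nuclei (78.7%) in 1 class. All markers of a class were detected in that class, but nuclei were placed by these same markers, so this is no check of the classes. Some markers were also high in another class. Hs3st4, a marker of subicular and cortical excitatory neurons, was among the top genes of CA3. Rgs5, a marker of mural cells and fibroblasts, was among those of endothelial nuclei. In the APP/PS1 mice, the transgenes are driven by the promoter of Prnp, but its level overlapped between labels (63.6 to 433 CPM in mice labelled APP/PS1, 42.2 to 196 CPM in mice labelled WT), so genotypes are named as labelled. For example, mice 11 and 17, labelled APP/PS1, had 63.6 and 74.5 CPM, and mouse 14, labelled WT, had 196 CPM. The mice fall into runs of numbers (1 to 4, 10 to 13, 14 to 17, 18 to 20 and 25 to 29). The study's methods state that tissue was handled 4 samples at a time, 1 from each combination of genotype and wake or anesthesia, but no source used here names the mice of each such batch. The runs were set here from the mouse numbers. Mice 1 to 4 and mice 14 to 17 each hold 1 mouse of all 4 combinations, and the other runs do not.

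Members were a small part of the nuclear RNA. They took 0.473% of all UMIs, and the median member had a UMI in 9.60% of the nuclei. The 10 members with the most UMIs held 23.5% of the member UMIs. Their genes lie on 19 chromosomes and are short, with a median span of 3.37 kb and a median exon length of 1.77 kb in the GENCODE annotation. In 21 cases a gene on the opposite strand overlaps the member, and in 1 case (Rpl19 with Gm11629) a gene on the same strand does, so reads of these genes may be split.

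Levels over all nuclei were compared between members as CPM per kb of exon, where CPM is the number of UMIs of a gene divided by all UMIs and multiplied by 1e6. The libraries count 3′ ends, which need not grow with exon length, so the order of members differs between CPM per kb and CPM. Rplp1, a stalk protein that recruits elongation factors, had the highest level over all mice, with 236 CPM per kb, and was the highest member in 13 of 20 mice. Its level ranged from 30.2 to 617 CPM per kb over the mice, and that of Rps3a1, the highest in 3 mice, from 49.9 to 234 CPM per kb. In the other 4 mice Rpl26 was the highest. Over all mice, Rplp1 was followed by Rpl19 with 116, Rps3a1 with 108, Rps21 with 92.6 and Rpl36 with 86.0 CPM per kb. The other stalk genes were far lower, with 23.2 CPM per kb for Rplp0 and 13.2 CPM per kb for Rplp2, although their proteins sit on the same stalk. Rpl13 gave the most UMIs (55941, in 24.0% of the nuclei) and stood at 60.2 CPM per kb. Rpsa, whose protein is also known as the laminin receptor, had 23.1 CPM per kb, and Rps6, the substrate of S6 kinase, 23.8 CPM per kb. Rpl41, which encodes the shortest ribosomal protein, had 34.2 CPM per kb, and Rps27a, made as a fusion with ubiquitin, 42.8 CPM per kb.

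The lowest levels were those of copies or relatives of other members and of 1 small subunit gene. Rpl3l, a form of Rpl3 known from striated muscle, had 0.607 CPM per kb, against 32.3 CPM per kb for Rpl3. Rpl10l had 3.91 CPM per kb against 19.6 for Rpl10, and Rpl39l 6.997 against 16.9 for Rpl39. Rpl7l1 had 7.83 CPM per kb against 16.7 for Rpl7, and Rps27l 7.85 against 38.5 for Rps27. The longest transcripts of Rpl7 and Rpl7l1 aligned over only 19 bases. Rpl22l1 had 17.4 CPM per kb against 13.6 for Rpl22, but without the division by exon length the order turned, with 34.5 CPM for Rpl22l1 and 39.7 CPM for Rpl22. Rps15a, which is no copy of another member, had 6.45 CPM per kb, with exons of 6.27 kb. Undivided it had 40.5 CPM, above Rpl35 with 11.9 CPM and Rpl36a with 17.8 CPM.

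The first question was how member RNA differs between cell classes. In every mouse, members took a larger share of the UMIs in glial classes than in CA1 pyramidal neurons, and the order within neurons was DG granule, then CA1, then CA3. The share was 0.279% in CA1 (median of 20 mice, range 0.157 to 0.674), 0.221% in CA3 (0.144 to 0.515) and 0.416% in DG granule neurons (0.200 to 0.889). Subicular and cortical excitatory neurons had 0.325% (0.166 to 0.767) and interneurons 0.319% (0.158 to 0.867). The ranges of all neuronal classes overlapped across mice, but within a mouse DG granule neurons were above CA1 in 20 of 20 mice and CA1 above CA3 in 20 of 20. Subicular and cortical neurons were above interneurons in 7 of 20 mice, so that these neighbours were not ordered.

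Glial shares were higher. Astrocytes had 0.710% (0.239 to 1.40), oligodendrocytes 0.847% (0.239 to 1.70), oligodendrocyte precursors (OPC) 0.556% (0.220 to 1.22) and microglia 0.604% (0.250 to 1.97, 18 mice with at least 50 nuclei). Within a mouse, astrocytes, oligodendrocytes and OPC exceeded CA1 in 20 of 20 mice and microglia in 18 of 18. DG granule neurons were above OPC in 2 of 20 mice and above microglia in 1 of 18. Both astrocytes and oligodendrocytes exceeded OPC in 20 of 20 mice, and oligodendrocytes exceeded astrocytes in 16 of 20. Oligodendrocytes were above microglia in 9 of 18 mice, and these neighbours were not ordered.

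By median, the highest shares were seen in the classes called vascular here, endothelial nuclei and mural cells and fibroblasts. Mural cells and fibroblasts were gated as 1 class and not told apart, so that vascular is only a label for it. Its genes with the largest fold were Lama1, Colec12 and Cped1, which were not among its markers. Endothelial nuclei had 3.81% (2.18 to 4.49), but only 3 mice had at least 50 of them. Mural cells and fibroblasts had 1.49% (0.292 to 5.93, 15 mice) and exceeded CA1 in 15 of 15 mice. Oligodendrocytes were above mural cells and fibroblasts in 3 of 15 mice, and microglia were in 4 of 14. In mural cells and fibroblasts the share moved with the run of mouse numbers. It was 1.84 to 5.93% in mice 25 to 29, 1.08 to 1.93% in mice 1 to 4 and 0.545 to 1.79% in mice 10 to 13, against 0.292 to 0.411% in mice 14 to 17 and 0.420% in the 1 mouse of 18 to 20. The clusters of nuclei named for this class also differed in their mice. Those of 1839, 869 and 794 nuclei held 0% from mice 1 to 4, and those of 2629 and 435 nuclei 24.6 and 30.6%. The clusters of 1839 and 794 nuclei had 0 markers of the class among their 10 top genes, which included the member Rpl10. The parts of the run and of this make-up in the share were not tested.

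**Figure D1:**
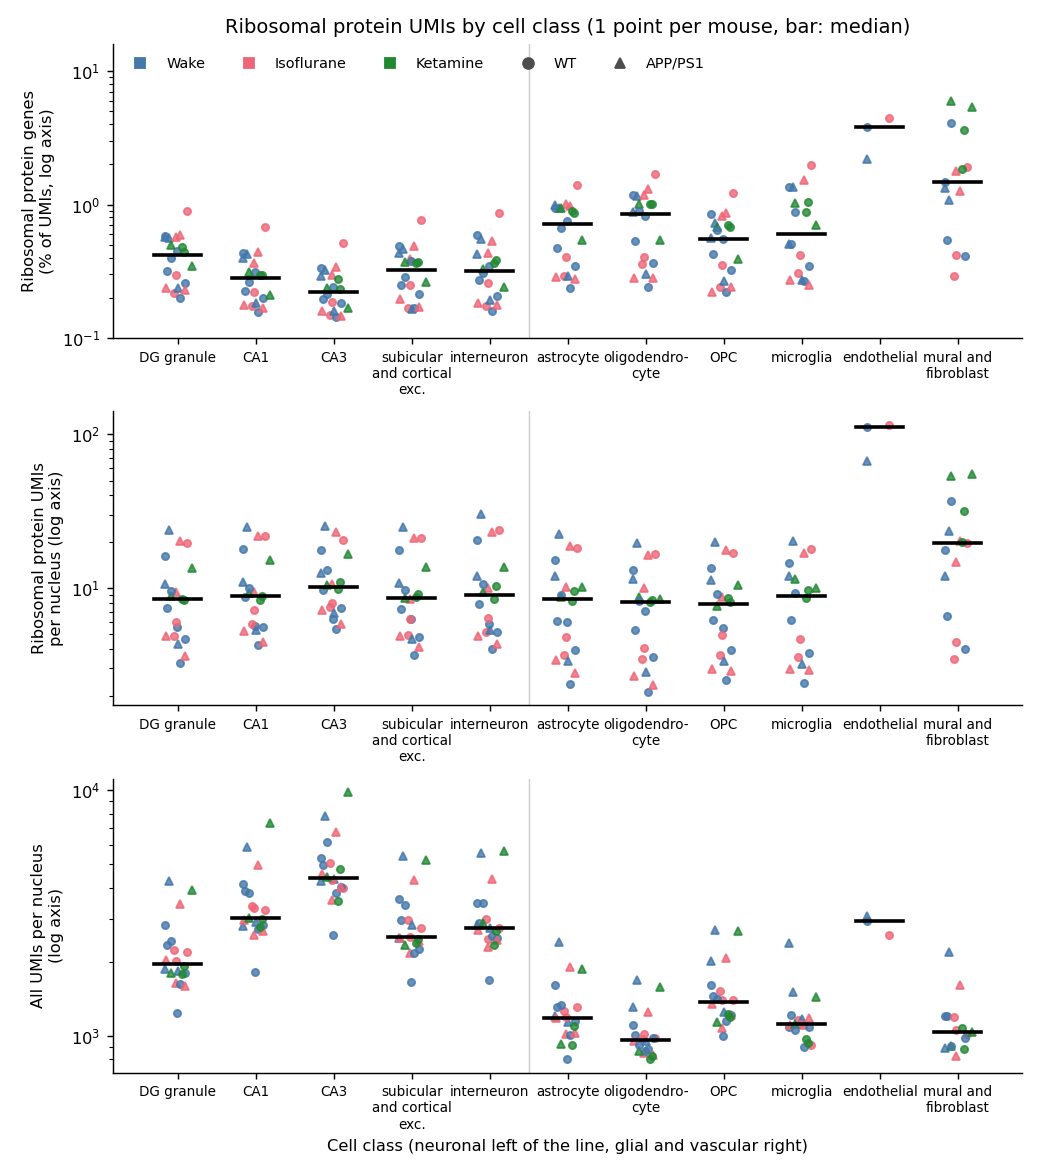
Each point is 1 mouse and class with at least 50 nuclei, the bar is the median over mice, and all y axes are logarithmic. From top to bottom, the panels give member UMIs as percent of all UMIs, member UMIs per nucleus and all UMIs per nucleus. The share rises from neurons to glia, the medians of member UMIs per nucleus lie between 7.93 and 10.1 in all classes but the vascular ones, and the medians of all UMIs per nucleus are lower in glia than in neurons.

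A share depends on all other RNA of the class, so member UMIs were also counted per nucleus. On this scale the medians of glia and neurons lay close together, although most mice had more in neurons. The median was 8.82 member UMIs per nucleus in CA1, 10.1 in CA3, 8.45 in DG granule neurons, 8.60 in subicular and cortical neurons and 9.0003 in interneurons. Astrocytes had 8.47, oligodendrocytes 8.16, OPC 7.93 and microglia 8.93. Within a mouse, CA1 was above astrocytes in 16 of 20 mice, above oligodendrocytes in 17 of 20, above OPC in 18 of 20 and above microglia in 14 of 18. CA3 was above astrocytes and OPC in 20 of 20 mice and above oligodendrocytes in 19 of 20. Mural cells and fibroblasts had 19.5 and endothelial nuclei 112 member UMIs per nucleus. Within a mouse, however, mural cells and fibroblasts were above CA1 in only 7 of 15 mice, with a median ratio of 0.985. Their values moved with the run of mouse numbers, from 3.46 to 4.03 in mice 14 to 17 to 19.8 to 55.5 in mice 25 to 29.

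Taken as a ratio within each mouse, member UMIs per nucleus in oligodendrocytes were 0.740 times those of CA1 (median over mice), in astrocytes 0.841, in OPC 0.764 and in microglia 0.739 times. The corresponding ratios for all UMIs were smaller: 0.296 in oligodendrocytes, 0.386 in astrocytes, 0.426 in OPC and 0.335 in microglia. CA3 went the other way, with 1.13 times the member UMIs of CA1 (above CA1 in 18 of 20 mice) but 1.41 times all UMIs. Smaller nuclei and less RNA per nucleus cannot be told apart here.

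Mitochondrially encoded genes, which read RNA from outside the nucleus, moved with the classes as well. Their UMIs per nucleus were 1.74 times the CA1 value in astrocytes, 1.17 in oligodendrocytes, 1.15 in OPC, 1.14 in microglia, 2.30 in mural cells and fibroblasts and 9.15 in endothelial nuclei. The part of this RNA in the member counts was not tested.

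Next, single members were compared between the glial and vascular classes and the neuronal classes. The fit was edgeR's quasi-likelihood test on counts summed per mouse and class, with the mouse as a block and Benjamini-Hochberg adjustment over 15225 genes, and it used classes present in at least 10 mice. It counts the classes of a mouse as separate libraries (193 in all). It holds no term for how the glial to neuronal difference varies between mice, so its SE and p-value do not measure that spread. Relative to all other RNA, 82 of 82 tested members were higher in glial and vascular classes, whereas 42.5% of all genes tested were. Rpl3l was too low to be tested. The median log2 difference was 1.14 for members and 0.05 for all genes. By subunit, the medians were 1.30 for the P stalk (1.27 to 1.54), 1.17 for the small subunit (0.65 to 1.47) and 1.08 for the large subunit (0.17 to 1.60). Levels below are CPM per mouse, averaged over its neuronal or its glial and vascular classes and given as lowest, median and highest of 20 mice.

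The P stalk genes lay among the larger differences. Rplp1 had 13.3, 73.5 and 166 CPM in neuronal classes and 26.5, 262 and 669 CPM in glial and vascular classes. The ranges overlapped across mice, but glial and vascular values were above neuronal ones in 20 of 20 mice. The log2 difference of Rplp1 was 1.54 ± 0.07 (SE, edgeR adjusted p = 7.53e-54). Rplp0, on which the stalk is built, had 10.7, 22.6 and 50.8 CPM in neuronal and 24.9, 62.8 and 145 CPM in glial and vascular classes, a log2 difference of 1.30 ± 0.07 (edgeR adjusted p = 8.82e-43). For Rplp2 the log2 difference was 1.27.

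Among small subunit genes, Rps6 had 13.3, 22.2 and 61.5 CPM in neuronal and 27.7, 58.9 and 131 CPM in glial and vascular classes, with a log2 difference of 1.14 ± 0.06 (edgeR adjusted p = 2.78e-41). Rpsa had 18.8, 37.6 and 144 CPM against 43.0, 95.2 and 327 CPM, with a log2 difference of 1.10 ± 0.05 (edgeR adjusted p = 2.03e-49). Both genes sat at the middle of the members. The log2 difference was 1.25 for Rps27a, 1.36 for Rps9 and 1.47 for the X-linked Rps4x.

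Large subunit genes covered the widest range. Rpl13 had 44.0, 94.5 and 199 CPM in neuronal and 75.9, 288 and 753 CPM in glial and vascular classes, a log2 difference of 1.34 ± 0.07 (edgeR adjusted p = 1.38e-46). Rpl3, which lies near the catalytic centre, had a log2 difference of 1.17, Rpl7 of 1.33, Rpl10 of 1.38, Rpl32 of 1.56 and Rpl41 of 0.79. Those of Rpl39l (1.60) and Rpl10l (1.45) rest on few mice, as described below.

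At the other end, a few genes counted with the large subunit by symbol differed little. Rpl7l1 had 18.7, 26.4 and 33.3 CPM in neuronal and 16.1, 36.0 and 46.7 CPM in glial and vascular classes, was higher in glial and vascular classes in 17 of 20 mice and had a log2 difference of 0.17 ± 0.05 (edgeR adjusted p = 0.000861). Rpl6 had 35.1, 74.8 and 200 CPM against 46.6, 102 and 380 CPM, was higher in 20 of 20 mice and had a log2 difference of 0.31 ± 0.04 (edgeR adjusted p = 1.69e-14). The values of both genes overlapped widely between the classes. Rpl26 (0.35 ± 0.08, edgeR adjusted p = 1.73e-05) and Rpl15 (0.47 ± 0.07, edgeR adjusted p = 3.56e-09) were each higher in 13 of 20 mice, and Rpl23a (0.56) in 15 of 20. In all, 56 of the 83 members were higher in glial and vascular classes in 20 of 20 mice, as were 26.9% of the 15225 genes tested.

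On the per-nucleus scale, the direction of many members changed. Counts scaled to the number of nuclei gave 14 members higher and 38 lower in glial and vascular classes, where 11.1% of all genes were higher and 80.7% lower (edgeR adjusted p below 0.05). The median log2 difference was −0.09 for members and −1.15 for all genes, so that members fell less than the typical gene. Rplp1 (0.31), Rpl32 (0.34) and Rpl39l (0.45) were higher on this scale too. Rpl7l1 (−1.04), Rpl6 (−0.90), Rpl26 (−0.87) and Rpl15 (−0.75) were lower, close to the median of all genes. Rps6 had a log2 difference of −0.09 per nucleus (edgeR adjusted p = 0.0922). On this scale each class was also set against the mean of the other classes. Mural cells and fibroblasts had 72 members higher and 2 lower (2176 and 9871 of the 15225 genes tested). Astrocytes had 1 higher and 49 lower (2731 and 10336), and oligodendrocytes 0 and 77 (1359 and 12754). OPC had 0 and 55 (2237 and 7941) and microglia 0 and 44 (1829 and 10548). The result for mural cells and fibroblasts did not hold in every mouse, since their member UMIs per nucleus were above CA1 in 7 of 15 mice. They were 19.8 to 55.5 in mice 25 to 29, but 3.46 to 4.03 in mice 14 to 17, where CA1 had 5.23 to 5.88. The fit on this scale was not repeated without mice 25 to 29.

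**Figure D2:**
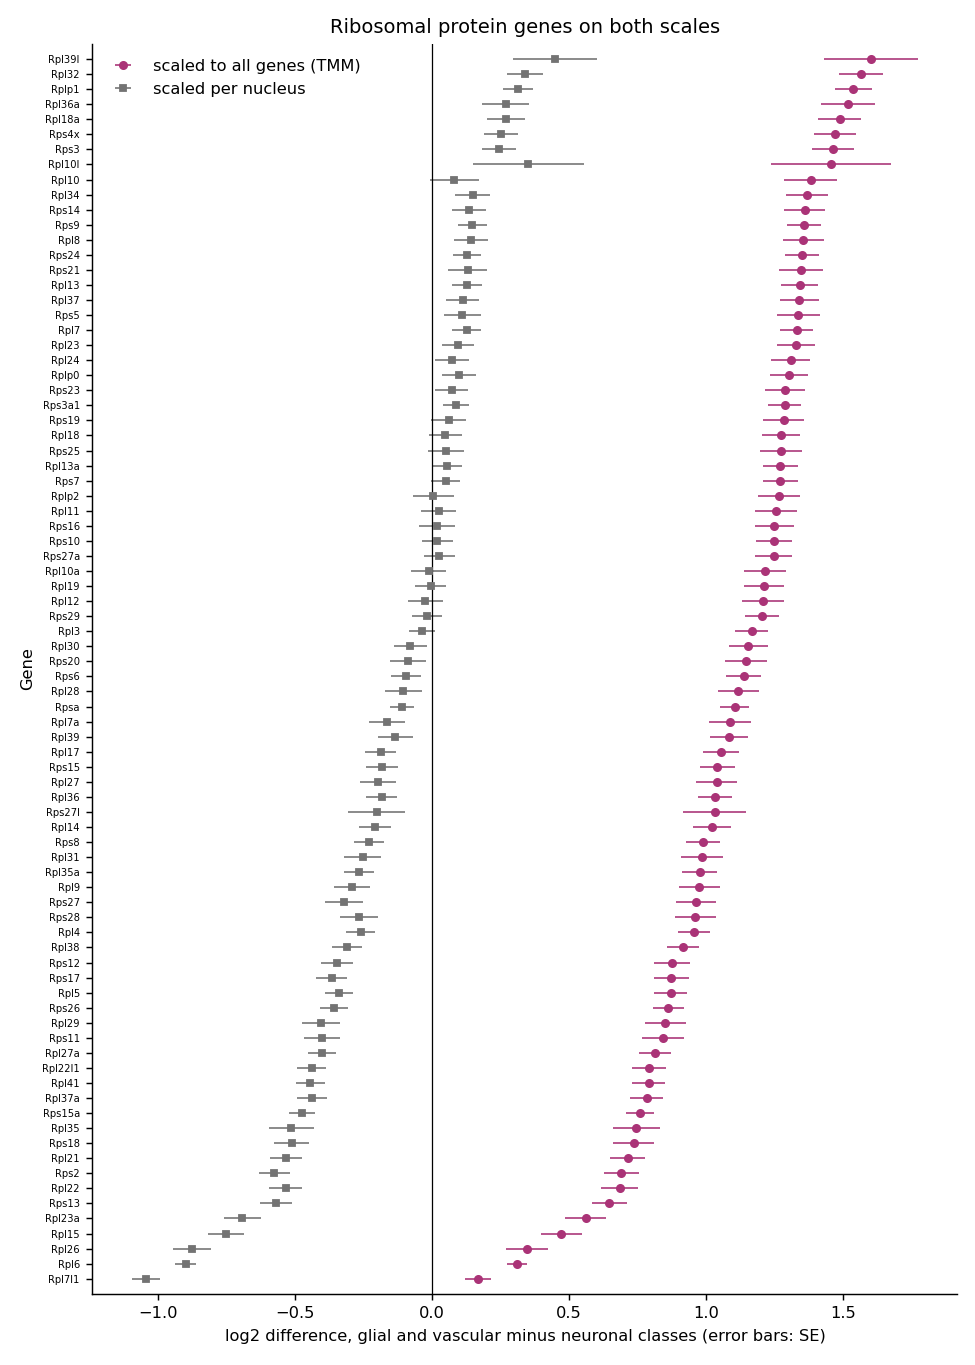
For each of the 82 tested members, the log2 difference between glial and vascular and neuronal classes is shown with its SE, scaled to all genes (circles) and per nucleus (squares). Scaled to all genes, every member lies above 0 with a median of 1.14; per nucleus the median is −0.09. Rpl7l1, Rpl6, Rpl26, Rpl15 and Rpl23a stand lowest on both scales.

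Gene length and level were set beside these differences as a description. Spearman's rho of the log2 difference was −0.02 with gene span and 0.22 with mean level, over 82 genes that share libraries. Without the mural and fibroblast class, 82 members were higher (42.5% of all genes) with a median log2 difference of 0.89 (0.04 for all genes). Without mice 25 to 29, 79 were higher (39.8%), with a median of 0.86 (0.03 for all genes).

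Each class was then set against the mean of the other classes in the same fit. In DG granule neurons, 50 members were lower (37.0% of all genes) and 3 higher (35.8%), with a median log2 difference of −0.21. Without the mural and fibroblast class, 3 were lower (34.9%) and 11 higher (36.8%), with a median of 0.01. Without mouse 25, 9 were lower (29.8%) and 7 higher (43.8%). In the fit with all classes and mice, the 3 higher members were Rpl15 (0.37), Rpl6 (0.23) and Rpl7l1 (0.21), and examples of the lower ones were Rps16 (−0.36), Rpl14 (−0.35) and Rps7 (−0.34). CA1 had 81 members lower (38.2%) and 1 higher (35.5%), with a median of −0.72. The higher one was Rpl26, with a log2 difference of 0.86 ± 0.09 (edgeR adjusted p = 3.44e-16), whereas Rplp1 (−0.95), Rps24 (−0.88) and Rpl7 (−0.81) were lower.

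CA3 had the lowest median of the 10 classes in this fit, with 80 members lower (37.9% of all genes) and a median of −0.99, among them Rpl7 (−1.29), Rps3a1 (−1.20) and Rpsa (−1.06). Subicular and cortical excitatory neurons had 80 lower (33.2%), among them Rpl26 (−0.96), Rps9 (−0.81) and Rpl13a (−0.78). Interneurons also had 80 lower (30.1%), among them Rpl26 (−1.03), Rplp1 (−0.85) and Rps29 (−0.82).

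In oligodendrocytes, 79 members were higher (35.6% of all genes), with Rpsa (0.91), Rpl7 (0.86) and Rps29 (0.83) named by the smallest adjusted p. Astrocytes had 70 higher (40.0%), named likewise by Rpl36a (1.13), Rps29 (0.61) and Rpsa (0.60). Microglia had 50 higher (22.9%), with Rps9 (0.62), Rps29 (0.57) and Rps15a (0.48), but 1 without mice 1 to 4 (18.2%). OPC had 1 member higher (23.0%), Rpl13 (0.35), and 2 lower (25.1%), Rpl15 (−0.48) and Rpl26 (−0.43). Without the mural and fibroblast class 23 were higher (23.5%) and 2 lower (28.5%). Leaving out mouse 20 gave 8 calls, where 46.8 to 51.3% of all genes were called in fits without 1 mouse. Mural cells and fibroblasts had 81 higher (28.1%) with a median of 1.76, led by Rpl10 (3.00), Rps4x (2.40) and Rps14 (2.32). Without mice 25 to 29, 71 members were higher in this class (21.1%) and the median was 0.67.

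The members did not spread equally over the classes. The SD of the mean log2 level over classes was smallest for Rpl7l1 (0.20) and Rpl6 (0.26), followed by Rpl23a (0.48), Rps2 (0.49) and Rpl35 (0.49). It was largest for Rpl39l (1.35), Rpl10l (1.33), Rpl10 (1.19), Rpl32 (1.11) and Rps4x (1.09). Without mice 25 to 29 the largest SDs were those of Rpl39l (0.82), Rpl10l (0.81), Rpl36a (0.79) and Rplp1 (0.78), and Rpl10 had 0.42. The smallest were then those of Rpl7l1 (0.21), Rps13 (0.27), Rps18 (0.28), Rpl6 (0.29) and Rpl15 (0.32), and Rpl35 had 0.49. Rpl7l1, a relative of Rpl7, ranged only from a median of 21.7 CPM in CA1 to 47.7 CPM in microglia among the classes present in at least 15 mice. Over the same classes Rplp1 ranged from a median of 37.2 CPM in CA3 to 467 CPM in mural cells and fibroblasts.

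Rpl26, whose protein lies close to the exit tunnel of the large subunit, had its highest neuronal median in CA1. Over DG granule neurons, CA1 and CA3, the medians of 66 of 83 members had the order DG granule, CA1, CA3, as had those of 28.6% of the 15225 genes tested. CA1 was the highest of these classes for Rpl26 and, by a small margin, for Rps27 (11.3 CPM against 11.2 CPM in DG granule neurons). The median level of Rpl26 was 146 CPM in CA1 and 91.7 CPM in CA3, against 78.4 CPM in DG granule neurons, 44.7 CPM in subicular and cortical neurons and 40.5 CPM in interneurons. Rpl13 had the order of most members, with 117 CPM in DG granule neurons, 85.0 CPM in CA1 and 60.1 CPM in CA3. In CA1, Rpl26 was as high as in mural cells and fibroblasts (150 CPM) and above oligodendrocytes (111 CPM) and astrocytes (72.4 CPM). This order rested on 12 mice, since in mice 10 to 12 and 25 to 29 the median in CA1 was 55.6 CPM, below oligodendrocytes (88.4 CPM), astrocytes (79.2 CPM) and mural cells and fibroblasts (160 CPM) and close to DG granule neurons (53.2 CPM). The 8 lowest CA1 values of Rpl26 were those of mice 10 to 12 and 25 to 29 (44.4 to 114 CPM), and the other 12 mice had 134 to 226 CPM. The same 8 mice were lowest in CA3 (24.6 to 51.3 CPM, others 78.7 to 155) and in DG granule neurons (29.8 to 74.1 CPM, others 75.2 to 137). In subicular and cortical neurons the values of these mice (23.8 to 56.7 CPM) overlapped those of the others (24.6 to 101 CPM). These mice were set apart after their values were seen, and no test was made.

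Members with a near copy in the genome need a separate account, since reads that match both copies can be split or lost. The longest transcripts of Rpl10 and Rpl10l are identical at 84.8% of 646 aligned bases, with a longest identical run of 23 bases. For Rpl39 and Rpl39l the identity is 85.1% over 168 bases, with a longest identical run of 38 bases. Rpl10l is a gene of 1 exon on chromosome 12, and Rpl39l lies on chromosome 16, while their partners lie on the X chromosome.

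Rpl10l was read in some mice and almost absent in others. Mice 10 to 12 and 25 to 29 had 22 to 245 UMIs each (1431 in sum), and the other 12 mice had 2 UMIs in total. Rpl39l followed the same mice, with 40 to 490 UMIs each (2080 in sum) against 3 UMIs in the other 12 mice. Rps23 was higher in the same 8 mice without overlap, with 116 to 237 CPM over all nuclei against 23.0 to 111 CPM. Rpl10l, Rpl39l and Rps23 were the 3 of 83 members whose values in the 8 mice did not overlap those of the others. The 8 mice were set apart after such values were seen, so the lack of overlap is no support for the split. The share of all genes without such overlap was not counted.

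The partners did not follow the copies mouse by mouse. Rpl10 had 3.86 to 39.7 CPM in mice other than these 8, and among the 8 it ranged from 4.02 to 197 CPM, since mice 10 to 12 had low and mice 25 to 29 high values. Rps27 had 4.64 to 213 CPM in the 8 mice and 5.11 to 84.5 CPM in the others. Rps4x had 33.6 to 242 CPM and 24.4 to 123 CPM. Rpl39 overlapped fully, with 7.36 to 53.8 CPM and 5.42 to 83.3 CPM.

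Rpl7l1 was lower in the 8 mice with little overlap, with 18.9 to 25.5 CPM against 24.0 to 34.8 CPM in the others, while Rpl7 had 25.4 to 59.3 and 25.7 to 98.3 CPM. The other pairs overlapped more. Rpl22l1 had 22.5 to 41.5 CPM in the 8 mice and 11.8 to 75.5 CPM in the others, and Rpl22 34.7 to 65.4 and 23.9 to 54.0 CPM. Rps27l had 3.15 to 20.9 and 1.71 to 11.3 CPM. Rpl3l stayed at 3 to 42 UMIs per mouse. Genes that are no members went with the same mice, among them copies of genes outside the ribosome: Btg1-ps2 had 4 to 20 UMIs per mouse in the 8 and 0 in the other 12, and Aldoart2 9 to 44 against 0 to 3. Rps27rt had 8.70 to 23.9 CPM against 1.35 to 4.50 CPM. Gm10320 had 32 to 276 UMIs per mouse in the 8 and 7 UMIs in total in the other 12, and Rpl10-ps3 had 30 to 289 UMIs per mouse against 1 to 26. What sets these mice apart was not tested. For this reason the levels of Rpl10, Rpl10l, Rpl39, Rpl39l, Rps27 and Rps23 are uncertain, as are those of Rpl7l1 and, in CA1, CA3 and DG granule neurons, of Rpl26.

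**Figure D3:**
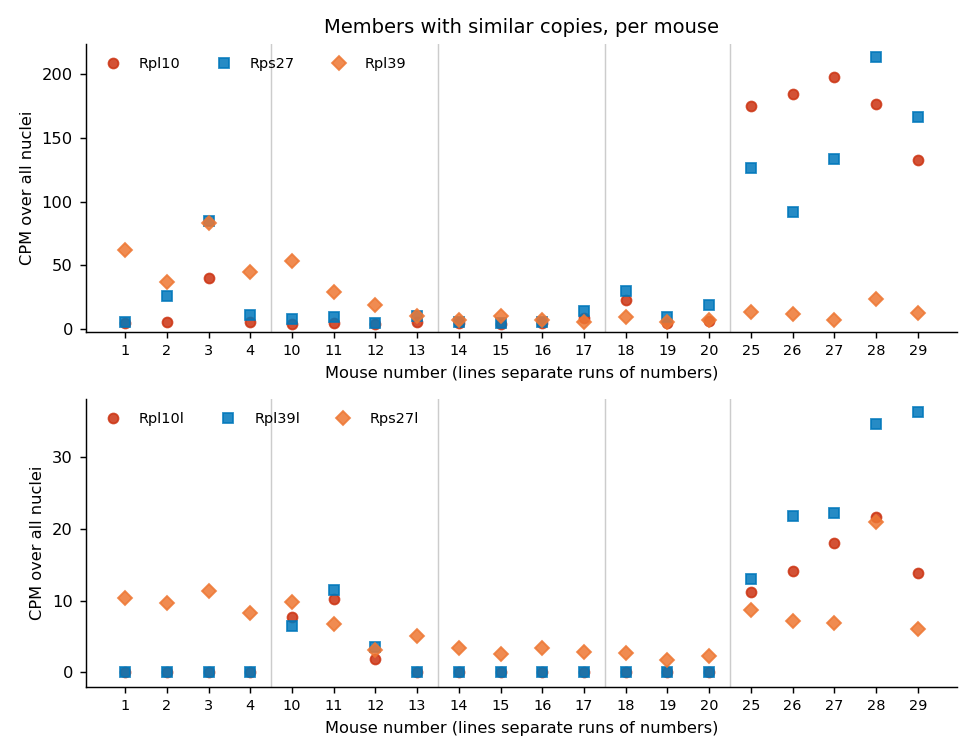
CPM over all nuclei of each mouse, in order of the mouse numbers, for Rpl10, Rps27 and Rpl39 (top) and for Rpl10l, Rpl39l and Rps27l (bottom). Grey lines separate the runs of numbers. Rpl10 and Rps27 are highest in mice 25 to 29, and Rpl10l and Rpl39l are above 0.1 CPM only in mice 10 to 12 and 25 to 29.

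Other genes of translation were read from lists, beside the 42.5% of all genes that were higher and the 39.4% that were lower in glial and vascular classes. Of 43 translation factors and partners of the ribosome, 34 were higher and 3 lower in glial and vascular classes, with a median log2 difference of 0.58. The largest were Tpt1 (1.41), Rack1 (1.33), a scaffold on the small subunit, Eef1a1 (1.27) and Fau (1.23), whose product includes a ribosomal protein. The 3 lower genes were Eef1a2 (−0.75), the neuronal form of the elongation factor, Eif4g3 (−0.43) and Eif4e (−0.16). Of the ribosome biogenesis genes, 8 of 38 were higher and 21 lower, with a median of −0.14 against 0.05 for all genes. Among 19 tested genes of mTOR signalling and TOP mRNA regulation, 5 were higher and 11 lower. Mtor (−0.20), Rptor (−0.20) and Rps6kb2 (−0.88) were lower, Rheb (0.50) and Eif4ebp1 (1.25) higher, and Larp1 had a log2 difference of 0.02. Mitochondrial ribosomal proteins had a median of 0.24 (42 of 77 higher, 15 lower), nuclear genes of oxidative phosphorylation 0.67 (72 of 85 higher, 8 lower) and mitochondrially encoded genes 1.54 (13 of 13 higher).

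The next question was whether anesthesia or genotype moved the members. Over all nuclei, the member share of a mouse was 0.191, 0.392 and 0.664% in Wake mice (lowest, median, highest of 9), 0.198, 0.284 and 0.978% in 7 Isofluran mice and 0.678, 0.692 and 0.768% in 4 Ketamine mice. The Wake and Isofluran ranges overlapped, and the Ketamine mice were above all Wake mice. Within classes this was not so: in 9 of the 9 classes compared below, the Ketamine range lay inside the Wake range. In mural cells and fibroblasts, which were not compared between states, Ketamine mice had 1.84 to 5.93% (median 4.48) and Wake mice 0.411 to 4.07% (median 1.21). In CA1, Ketamine mice had 0.209 to 0.311% and Wake mice 0.157 to 0.436%, and in astrocytes 0.540 to 0.937% and 0.239 to 0.993%. The share over all nuclei moved with the run of mouse numbers, from 0.191 to 0.284% in mice 18 to 20 and 0.209 to 0.244% in mice 14 to 17 to 0.573 to 0.768% in mice 25 to 29 and 0.633 to 0.978% in mice 1 to 4. Mouse 29, the Wake mouse beside the 4 Ketamine mice, had 0.573%.

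Wake and Isofluran mice were then compared within runs. In mice 1 to 4, Wake mice had 0.633 and 0.664% and Isofluran mice 0.656 and 0.978%. In mice 14 to 17, Wake mice had 0.214 and 0.244% and Isofluran mice 0.209 and 0.211%. Both Isofluran mice were below both Wake mice in the second of these runs, and the states overlapped in the first, where the highest value was that of an Isofluran mouse. In mice 10 to 13, the 3 Wake mice had 0.298 to 0.586% and the Isofluran mouse 0.531%. In mice 18 to 20, the Wake mouse had 0.191% and the Isofluran mice 0.198 and 0.284%. The mitochondrially encoded share was 0.939 to 1.78% in mice 1 to 4 and 0.0353 to 0.0747% in mice 25 to 29, so a high member share went with a high mitochondrial share in the first run and with a low one in the last.

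**Figure D4:**
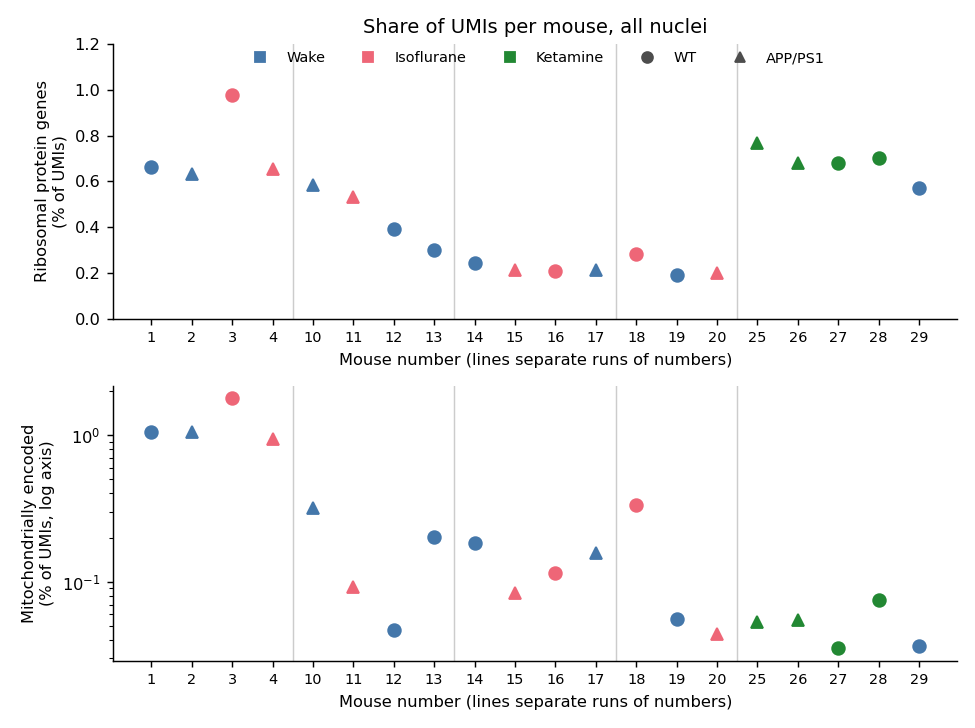
Member share of all UMIs per mouse (top, percent) and mitochondrially encoded share (bottom, percent, logarithmic axis), in order of the mouse numbers. Colours give the state and symbols the genotype label, and grey lines separate the runs. The member share is 0.191 to 0.284% in mice 14 to 20 and at least 0.573% in mice 1 to 4 and 25 to 29.

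Isoflurane was compared with wake in 9 classes, with all 6 groups in 1 edgeR fit per class and genotypes weighted equally. Of 728 pairs of a member and a class, 2 passed an adjusted p of 0.05, whereas 3.54% of the 104977 pairs of any gene and class did. Both were Rpl15, in CA1 and in subicular and cortical excitatory neurons. The median log2 difference of the members lay between −0.03 and 0.21 in the 9 classes. At an unadjusted p below 0.05, 7 member pairs (0.962%) passed, against 15.5% of all pairs.

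Rpl15 encodes a protein of the large subunit. In CA1 its level was 43.5, 50.5 and 61.6 CPM in Wake mice (lowest, median, highest of 9; scaled by TMM factors, as are the levels per state below) and 72.6, 77.8 and 91.1 CPM in 7 Isofluran mice. Every Isofluran mouse was above every Wake mouse, of either genotype label. Rpl15 is described because it was called on these same values, so the lack of overlap is no further support. The share of all genes without overlap between the states was not counted, in this class or the next. The log2 difference was 0.60 ± 0.14 (edgeR adjusted p = 0.0168), and 3.45% of all genes were called higher in CA1. In subicular and cortical neurons Rpl15 had 58.0, 72.0 and 79.8 CPM in Wake and 80.8, 102 and 126 CPM in Isofluran mice. There was again no overlap, and the log2 difference was 0.54 ± 0.13 (edgeR adjusted p = 0.0127; 3.19% of all genes called higher). Both calls were lost without mouse 10, and the second also without mouse 3, while the log2 difference stayed between 0.56 and 0.66 in CA1 and between 0.47 and 0.61 in subicular and cortical neurons when 1 mouse was left out.

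In CA3, 6 of 7 Isofluran mice (54.3 to 78.5 CPM) were above all Wake mice (40.2 to 54.7 CPM), and the log2 difference of 0.43 did not pass (edgeR adjusted p = 0.0721), whereas DESeq2 called it (log2 difference 0.44, DESeq2 adjusted p = 0.0344; its 3 member pairs called, against 4.61% of all pairs, were Rpl15 in these 3 classes). Rpl15 was not called in the other classes, where the log2 difference was 0.23 in DG granule neurons, 0.10 in interneurons, 0.09 in astrocytes, 0.15 in oligodendrocytes, 0.21 in OPC and 0.25 in microglia. Whether the difference in CA1 exceeds that in these classes was not tested. Ketamine mice spanned both ranges in CA1, with 46.4 CPM in mouse 25, 58.0 CPM in mouse 28, 97.1 CPM in mouse 27 and 101 CPM in mouse 26.

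When the runs entered the fit as a block, Rpl15 had a log2 difference of 0.60 in CA1 (edgeR adjusted p = 0.00856) and 0.52 in subicular and cortical neurons (edgeR adjusted p = 0.0156). Without mice 1 to 4 the differences were 0.57 and 0.49 and neither passed (edgeR adjusted p = 0.139 and 0.119). The 1 member pair called without these mice (1.55% of all pairs) was Rpl3l in astrocytes. Rpl15 overlaps Nkiras1 on the opposite strand, and the antisense part of its reads was not tested.

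**Figure D5:**
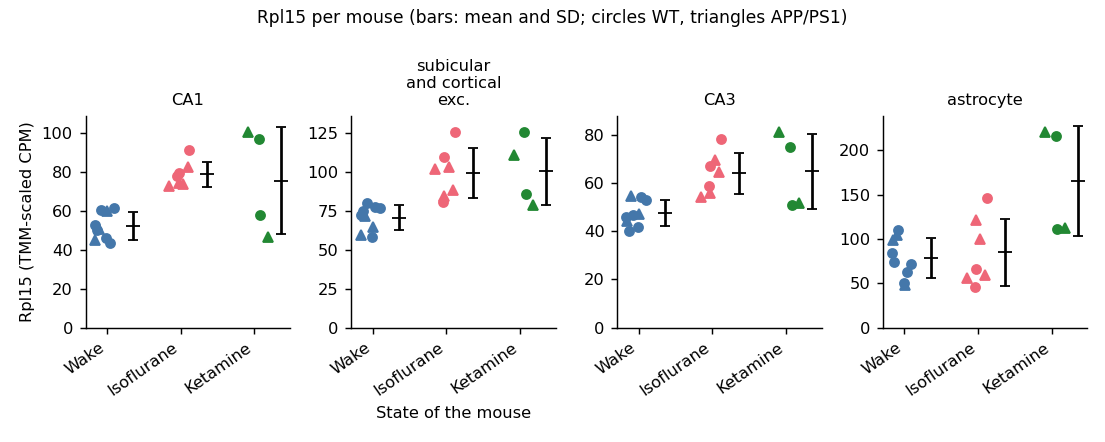
Rpl15 in each mouse (TMM-scaled CPM) in 4 classes, by state, with circles for WT and triangles for APP/PS1 labels and bars for mean and SD. In CA1 and in subicular and cortical excitatory neurons all 7 Isofluran mice are above all 9 Wake mice, while in astrocytes the Isofluran mice (46.2 to 146 CPM) overlap both the Wake mice (48.3 to 110.2 CPM) and the Ketamine mice (111 to 221 CPM).

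Apart from Rpl15, 4 member pairs had an unadjusted p below 0.05 with isoflurane, without passing the adjustment. They were Rps18 in DG granule neurons (log2 difference 0.35), Rpl3 in oligodendrocytes (0.58) and in microglia (0.73), and Rpl3l in astrocytes (0.94), with edgeR adjusted p = 0.140 to 0.630. With the run as a block, 7 of 735 member pairs were called, against 5.93% of all pairs: Rpl15 in the 2 classes named above, Rpl28 (0.67) and Rpl36a (0.86) in astrocytes, and Rplp2 (0.66), Rps23 (0.73) and Rps28 (0.93) in oligodendrocytes. All 7 were higher with isoflurane.

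Mice labelled APP/PS1 and WT were compared over wake and isoflurane. No member pair passed in edgeR or DESeq2 (0 of 728), and 0.0% of all pairs did in edgeR. At an unadjusted p below 0.05, 19 member pairs (2.61%) and 1448 of all pairs (1.38%) passed. The median log2 difference of the members lay between −0.14 and 0.14. It was above the median of all genes in 7 of 9 classes. Log2 differences above 0 were held by 62 of 83 members in astrocytes and 60 of 82 in DG granule neurons, but by 21 of 79 in microglia. In each class the member with the smallest p was lower in mice labelled APP/PS1. These were Rpl9 in subicular and cortical neurons (−1.01 ± 0.34), in interneurons (−1.19 ± 0.44) and in CA3 (−0.82 ± 0.32), and Rpl10 in oligodendrocytes (−2.41 ± 0.86), astrocytes (−2.20 ± 0.81), microglia (−2.03 ± 0.76), OPC (−2.10 ± 0.82) and CA1 (−1.38 ± 0.58), and Rps18 in DG granule neurons (−0.39 ± 0.15). None of these passed the adjustment. Without the filter on low genes, 3 of 747 member pairs were called lower, against 0.0281% of all pairs called: Rpl10 in OPC and microglia and Rps27 in OPC. Mouse 29, a WT Wake mouse, had the highest Rpl10 of its group in each of the 8 classes in which this gene is described below.

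The effect of isoflurane was also compared between genotype labels. Here, too, 0 member pairs passed in edgeR and in DESeq2, and 0.0% of all pairs did in edgeR. At an unadjusted p below 0.05 there were 31 member pairs (4.26%) and 3435 of all pairs (3.27%). The median interaction of the members was below that of all genes in 9 of 9 classes and lay between −0.69 in subicular and cortical neurons and −0.21 in oligodendrocytes, on the log2 scale. Other lists had medians below 0 as well, which lay between −2.70 and −1.16 for mitochondrially encoded genes, between −0.84 and −0.62 for nuclear genes of oxidative phosphorylation, between −0.49 and −0.21 for translation factors and between −0.49 and −0.10 for mitochondrial ribosomal proteins. The medians of ribosome biogenesis genes (−0.015 to 0.134) and of mTOR genes (−0.084 to 0.178) lay on both sides of 0. The part of these lists in the members' medians was not tested. Rpl9 in interneurons had the smallest p (−2.73 ± 0.87), without passing the adjustment. Without the filter on low genes, 3 of 747 member pairs were called (0.048% of all pairs), Rpl9, Rpsa and Rps29 in interneurons, with log2 interactions of −2.75, −1.67 and −1.93. Each genotype and state was spread unequally over the runs of mouse numbers, and the part of the runs in these medians was not tested.

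Ketamine was compared with wake last. All 4 Ketamine mice belong to the run 25 to 29, together with 1 Wake mouse, so state and run cannot be told apart beyond that mouse. Of 728 member pairs, 23 were called, against 5.84% of all pairs. Among them, 20 were higher (3.11% of all pairs) and 3 lower (2.73%). The higher ones were Rpl10 in 8 classes, Rpl9 in 4, Rps27 in 3, Rps18 in 3 and Rpl15 in 2. The lower ones were Rpsa in CA1 and DG granule neurons and Rpl26 in DG granule neurons.

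Rpl10, whose protein is among the last to join the large subunit, had log2 differences of 2.78 in CA3 to 3.90 in astrocytes (edgeR adjusted p = 0.00567 to 0.0386 in the 8 classes). In CA1, Rpl10 had 31.2 to 64.4 CPM in Ketamine mice and 3.25 to 7.18 CPM in 8 Wake mice, but 54.0 CPM in Wake mouse 29. The single Wake mouse of the run lay among the Ketamine mice. Rps27 in CA1 showed the same picture, with 60.2 to 96.6 CPM in Ketamine mice, 92.5 CPM in mouse 29 and 2.35 to 23.6 CPM in the other Wake mice, and a log2 difference of 2.26 (edgeR adjusted p = 0.0468).

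Rpsa was lower. In CA1 it had 16.7 to 25.7 CPM in Ketamine mice, 20.0 CPM in mouse 29 and 30.6 to 96.4 CPM in the other Wake mice, with a log2 difference of −1.33 ± 0.39 (edgeR adjusted p = 0.0391). Rpl26 in DG granule neurons had 31.1 to 60.8 CPM in Ketamine mice, 40.2 CPM in mouse 29 and 48.8 to 129 CPM in the other Wake mice, and a log2 difference of −0.91 ± 0.28 (edgeR adjusted p = 0.0407). For both genes mouse 29 was again within the Ketamine range.

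When the runs entered as a block, no member pair was called with ketamine in edgeR (0.0462% of all pairs), and Rpl10 had a log2 difference of −0.06 in CA1 and 0.38 in astrocytes. When 1 mouse was left out, the calls without the block in the 9 classes ranged from 11 (without mouse 2, 3.38% of all pairs) to 41 of 728 (without mouse 29, 7.17% of all pairs), and 55 member pairs (3.36% of all pairs) were called without the filter on low genes. Rps18 in DG granule neurons had a log2 difference of 0.88 without the block and 0.20 with it. Mouse 29 lay below all Ketamine mice for Rpl9 in astrocytes, with 71.3 CPM against 93.2 to 142 CPM. Comparisons with isoflurane and with ketamine share the Wake mice.

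The lists of other translation genes were counted in the same fits. With isoflurane, 2 of 373 pairs of translation factors were lower, 1 of 301 pairs of biogenesis genes was lower and 2 of 163 pairs of mTOR genes were lower. With ketamine, the calls were 4 higher and 1 lower for translation factors, 8 higher and 7 lower for biogenesis genes and 3 higher and 6 lower for mTOR genes. Mitochondrial ribosomal proteins had 4 pairs higher and 6 lower of 592 with ketamine. With 3.54% and 5.84% of all pairs called, the share called was below this background in each of these cases.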

How the data were processed

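Single nuclei RNA-sequencing of the hippocampus of 20 mice was analysed from the UMI counts per gene and nucleus that the authors deposited, with 1 file per mouse and no normalization. According to the study's methods, reads were aligned to an mm10 transcriptome of the 10x reference set by Cell Ranger, counting intronic reads as well. The file headers and processing notes name Cell Ranger 5.0.0, and whether the CellBender correction named in the methods was applied to these counts is not known. The kit version differs between methods and labels. Members and gene lists were chosen with earlier results of these data known.

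For each nucleus, the UMIs of the markers of 13 classes were summed with those of its 20 nearest neighbours and compared with the number expected from the pooled RNA. A class was given at a Poisson log-likelihood-ratio score of at least 10, at least 2-fold over the expectation, with 50% or more of the markers above 1.5-fold and a score at least 2 times that of the next class. Neighbours and Leiden clusters (37 at resolution 1) came from 30 components of 2000 variable genes without members and mitochondrial genes. Doublets were scored against simulated pairs of the same mouse (9947 nuclei, 6.19%) and kept. Counts were summed per mouse and class with at least 50 nuclei and tested with edgeR 4.0.16 (TMM scaling and the filterByExpr filter; quasi-likelihood test; p-values adjusted by Benjamini-Hochberg and called below 0.05). Nuclei of 1 mouse are not replicates. The study's methods correct for batch, but the sources used here do not assign mice to batches, so the run of mouse numbers entered as an alternative only. Comparisons of state and genotype used 1 fit per class with all 6 groups, in the 9 classes with at least 3 mice in each group of genotype and state (2 for ketamine). Comparisons of classes used 1 fit with the mouse as a block and classes in at least 10 mice. Shares are descriptions without a test, and low counts limit their precision by counting error at the depths given in the report.

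Named genes were the stalk genes, Rpsa, Rps6, Rpl41, Rps27a, Rpl10, Rpl3, retained copies and their partners, the 5 highest and lowest members by level, the 5 with the largest and smallest spread over classes, and up to 3 members per class and direction with the smallest adjusted p, or the 1 with the smallest unadjusted p where none was called. Other genes named were chosen after their values were seen. Alternatives were DESeq2 1.42.0, no gene filter, scaling without members, a block for the run of mouse numbers, leaving out mice 1 to 4, Leiden clusters, a stricter gate (margin 4), doublets removed, at least 500 genes per nucleus, and each mouse left out in turn. Fits were tested on simulated data. Python 3.11.15, numpy 2.4.6, scipy 1.17.1, pandas 2.3.3, scikit-learn 1.9.0, leidenalg 0.10.2, biopython 1.88, R 4.3.3 and limma 3.58.1 were used. Cajal-Retzius and choroid plexus nuclei had too few mice for the comparisons of classes, and Rps4l is not analysed here. A list of neuronal cytoplasmic genes is not reported here.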

Additional observations from a re-analysis of the deposited data

Results flagged for a closer look

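Of 68 groups of 4 to 6 mice, 17 held a mouse farther from the others than Dixon's critical value allows, where chance gives about 1 in 20. These groups covered the member shares and only those pairs of a member and a class that were called with isoflurane or ketamine, so they were chosen for a difference between states. In 14 of them it was mouse 29, the WT Wake mouse numbered beside the 4 Ketamine mice, as the highest of 6. Its Rpl10 level (TMM-scaled CPM) was 54.0 in CA1, 39.8 in CA3, 77.01 in DG granule neurons, 79.8 in subicular and cortical neurons, 70.7 in interneurons, 149 in astrocytes, 226 in oligodendrocytes and 134 in OPC, while the next WT Wake mouse had between 4.95 and 10.1. Rps27 in mouse 29 was 92.5 CPM in CA1, 128 CPM in DG granule neurons and 95.4 CPM in subicular and cortical neurons. Rpl9 was 49.7 CPM in DG granule neurons and 71.3 CPM in astrocytes, and Rps18 was 62.2 CPM in DG granule neurons. In pairs that were not called, and so not examined in this way, mouse 29 also stood high: Rpl10 in microglia was 171 CPM against at most 18.4 CPM in the other Wake mice, and Rps27 in astrocytes was 203 CPM against at most 41.7 CPM.

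Among APP/PS1 Isofluran mice, mouse 20 was the highest of 4 for Rpl15 in CA1 with 82.6 CPM (the others 72.6 to 74.2), and mouse 4 was the highest of 4 for Rpsa in CA1 with 79.1 CPM (next 36.0). Mouse 12 was the lowest of 6 WT Wake mice for Rpl15 in subicular and cortical neurons, with 58.0 CPM against 72.0 CPM in the next mouse.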

How the results depend on the processing

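With a block for the runs of mouse numbers, 7 member pairs were called with isoflurane (2 without the block; 5.93% of all pairs with and 3.54% without it) and 0 with ketamine (23 without; 0.0462% and 5.84% of all pairs). Under this block the log2 difference with ketamine changed sign for Rpl10 in CA1 (−0.064), CA3 (−0.031), DG granule neurons (−0.16), OPC (−0.23), interneurons (−0.26), oligodendrocytes (−0.30) and subicular and cortical neurons (−0.30), for Rps27 in CA1 (−0.80), DG granule neurons (−0.95) and subicular and cortical neurons (−0.41), for Rpl9 in DG granule neurons (−0.051) and for Rpl26 in DG granule neurons (0.33).

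Without mice 1 to 4, 1 member pair was called with isoflurane (1.55% of all pairs), and without a gene filter 3 were called for APP/PS1 (0.0281%), 3 for the interaction (0.048%) and 55 for ketamine (3.36%). Without 1 mouse at a time, isoflurane gave 0 to 2 calls (0 without mouse 10), ketamine 11 to 92 over 16 mice (92 without mouse 29, 48 without mouse 3, 14 without mouse 10, 11 without mouse 2; groups of 2 mice were allowed here, which added mural cells and fibroblasts in most of these fits, and over the 9 classes of the full comparison there were 11 to 41), and APP/PS1 and the interaction 0 to 0. Rpl15 in CA1 lost its call without mouse 10 (adjusted p = 0.0587), and in subicular and cortical neurons without mouse 10 or mouse 3 (highest adjusted p = 0.0581).

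Scaling per nucleus and leaving out mural cells or mice 25 to 29 were chosen after the data were seen. Scaled per nucleus, 52 members were called between glial and vascular and neuronal classes with a median of −0.091, and Rpl7l1 (−1.04), Rpl6 (−0.90), Rpl26 (−0.87), Rpl15 (−0.75) and Rps6 (−0.094) changed sign. Single classes then gave 26 (DG granule), 32 (CA1), 44 (CA3), 10 (subicular and cortical), 25 (interneuron) and 55 (OPC) calls, and 437 in sum over classes, where 71.6, 85.7, 86.8, 80.1, 78.4, 66.9 and 80.8% of all genes were called. DESeq2 called 8031 genes higher and 4884 lower between glial and vascular and neuronal classes, where edgeR called 6464 and 6005. Without 1 mouse, 81 to 82 members were called there, with a median of 1.00 to 1.20, and 617 to 674 calls summed over single classes, where 81.1 to 81.9% and 64.3 to 65.4% of all genes were called.

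For DG granule neurons, where 47.4 to 78.6% of all genes were called in either direction over these settings, 53 calls became 28 without a gene filter, 28 without mice 1 to 4, 29 with the strict gate, 22 without mice 25 to 29, 14 without mural cells and 16 to 60 without 1 mouse (29 without mouse 4, 35 without 18, 19 without 20, 16 without 25, 20 without 28, 31 without 29). For OPC, where 44.3 to 51.9% of all genes were called in the settings named here, 3 calls became 5 with DESeq2, Leiden clusters, the strict gate or without mice 1 to 4, 7 without mice 25 to 29, 25 without mural cells and 3 to 8 without 1 mouse (5 without mouse 1, 2, 3 or 28, 6 without 4, 7 without 11 or 25, 8 without 20). Microglia had 1 call without mice 1 to 4 (18.2% of all genes higher). There were 30 to 56 without 1 mouse (30 without mouse 4), where 52.5 to 57.1% of all genes were called. The endothelial share was 2.05% with the strict gate, 2.18% at 500 genes, 2.18% without mice 1 to 4 and 3.00 to 4.15% without 1 mouse, with 3 mice in all. The cause of these changes was not tested.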
